A study of Mus musculus with 6 samples.

Results

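The genes described here are 40 members of the antioxidant system of mouse cells, namely the transcription factor NRF2 with its partners and inhibitors, a group of its known target genes, and other enzymes that remove peroxides and superoxide. They were chosen by symbol, and all 40 were found among the 23504 genes of the deposited table. For the description they were divided into 6 regulators (Nfe2l2, Keap1, Bach1, Mafg, Mafk and Maff), 14 known NRF2 targets and 20 other antioxidant genes. RNA was sequenced from bone marrow–derived macrophages (BMMs) of C57BL/6 mice, which the methods of the study describe as males of 6 to 8 weeks. The cells were grown with M-CSF, the growth factor of macrophages, and RNA was taken after 3 days of treatment with DASA-58, a small molecule that activates the glycolytic enzyme PKM2, or with an equal volume of its solvent DMSO. Both groups held 3 libraries, and the results section of the study states that both were induced with RANKL, the cytokine that turns macrophages into osteoclasts, whereas its methods name RANKL for the treated cells alone. The methods write the compound as DASA-48, the sample labels as DASA-58, and no concentration is given for this experiment. The sources do not say whether replicates were separate mice or wells, so p-values measure only the spread between these libraries.

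NRF2, the product of Nfe2l2, is held in the cytoplasm and marked for degradation by KEAP1, a protein whose cysteines react with oxidants and electrophiles. When KEAP1 is modified, NRF2 accumulates, pairs with a small MAF protein and binds antioxidant response elements, short DNA motifs near genes of glutathione synthesis, thioredoxin recycling and detoxification. BACH1 competes for the same motifs as a repressor. In osteoclast precursors RANKL raises reactive oxygen species, which act as signals in differentiation, and NRF2 is known to restrain this process.

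The letters of the antioxidant response element were searched in the promoters of the members, from 250 bases before to 50 bases after the start, in RefSeq sequences of GRCm38.p6, which held 36 of the 40 genes (Gclc, Gsr, Prdx6 and Abcc1 were not matched). The core motif TGACNNNGC, on either strand, was found in 9 of the 36 members and in 14% of all 27025 genes of the table. A second form, TGANTCAGC, was found in 3 members, Prdx1, Srxn1 and Osgin1, and in 1.37% of all genes. It fixes more letters, but allows any letter where the core has C, so its matches are not all core matches. A site can match both motifs, as the one in Prdx1 did. The sites printed for Srxn1 and Osgin1 match the second form alone, and the core match of Srxn1 lies after the start. Stretches are given for 6 members that were higher with DASA-58 and for Maff and Sod1, which were not. Mafg and Mafk, which were not higher either, also held the core motif and are not shown. The stretches can be set beside the values that follow. They are written 5′ to 3′ on the strand of the gene, with the match in capitals, which on several promoters is the reverse complement (GCNNNGTCA or GCTGANTCA).
Prdx1, plus strand, chr4:116685446-116685494: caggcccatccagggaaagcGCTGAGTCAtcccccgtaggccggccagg
Srxn1, plus strand, chr2:152105459-152105507: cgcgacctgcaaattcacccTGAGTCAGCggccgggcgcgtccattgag
Osgin1, plus strand, chr8:119437028-119437076: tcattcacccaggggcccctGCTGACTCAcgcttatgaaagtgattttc
Gclm, plus strand, chr3:122245403-122245451: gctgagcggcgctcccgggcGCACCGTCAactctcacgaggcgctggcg
Txnrd1, plus strand, chr10:82859094-82859142: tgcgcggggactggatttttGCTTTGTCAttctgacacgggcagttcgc
Nfe2l2, minus strand, chr2:75704875-75704913: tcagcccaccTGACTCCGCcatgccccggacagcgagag
Maff, plus strand, chr15:79346489-79346537: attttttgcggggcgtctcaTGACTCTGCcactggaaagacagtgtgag
Sod1, plus strand, chr16:90220686-90220734: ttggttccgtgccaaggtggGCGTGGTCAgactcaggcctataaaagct
The core motif stood in 4 of 11 known targets, 1 of 19 other antioxidant genes and 4 of 6 regulators of this table. Of the members with a promoter in the table, 11 were higher with DASA-58 and 25 were not. The core motif stood in 5 of the 11 and the second form in 3, against 4 and 0 of the 25. The 3 with the second form are all known targets. The split by call is therefore not separate from the choice of members, and it was not tested. A match is a description of these letters and not a bound site, and genes without a match may hold one outside the window.

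The question addressed by the comparison is what DASA-58 does to gene expression in these cells, and all 40 members could be compared. Expression is given in FPKM, fragments per kilobase of gene, scaled to the fragments counted in a library, and changes as log2 fold changes on the scale of log2(FPKM + 1), where changes of genes near the floor come out too small. With DASA-58, 15 of the 40 members were higher and 2 lower (limma with a threshold of 0.05 on the p adjusted by Benjamini-Hochberg over the 10965 genes whose mean reached 1 FPKM). Among all genes tested 4.24% were higher and 7.28% were lower by the same rule, whereas 37.5% of the members were higher and 5% lower. Over all genes that is 465 higher and 798 lower, a split that turned to 600 and 588 with quantile normalization, 597 and 504 with centring and 594 and 523 with the trimmed mean, and to 385 and 966 with equal library totals. The members were at 15 higher with 2 or 3 lower under the former settings and at 13 higher and 2 lower with equal totals. Of the 14 known NRF2 targets 10 were higher and 0 lower, of the 20 other antioxidant genes 4 were higher and 2 lower, and of the 6 regulators 1 was higher. The median log2 fold change was 0.24 for the known targets and 0.01 for the other antioxidant genes, and -0.03 for all genes tested. When Mafg, Gss, Prdx6 and Cat were counted as targets as well, 12 of 18 targets were higher, with a median of 0.23, and the 17 remaining antioxidant genes had a median of 0.00. The difference between the classes was not tested, because the members were chosen with earlier results known. In libraries of whole cultures, fewer cells of a type and less RNA per cell cannot be told apart. No overlap between the groups was seen for 22 members, with all DASA-58 libraries above all DMSO libraries for 17 and below them for 5. Over all genes tested, 33.4% showed no overlap, 11.8% with the DASA-58 libraries above and 21.6% with them below. Leaving out DASA-58 replicate 1 reduced the lower members from 2 to 1.

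**Figure D1:**
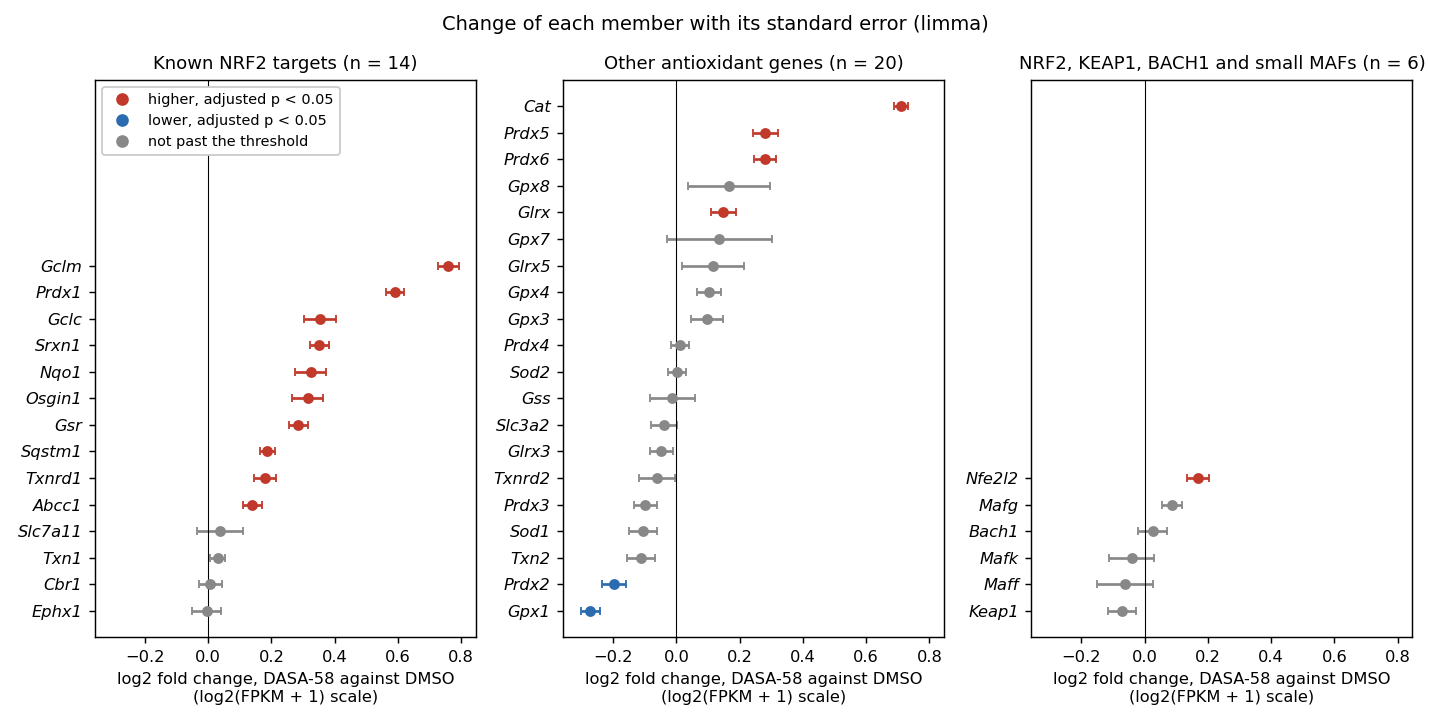
Log2 fold change of each of the 40 members with DASA-58 against DMSO on the log2(FPKM + 1) scale (horizontal axis), with the standard error of the limma fit as bars, in panels of 14 known NRF2 targets, 20 other antioxidant genes and 6 regulators. Red points passed an adjusted p under 0.05 as higher, blue as lower and grey did not pass. The targets lie between -0.00 and 0.76, while the other antioxidant genes lie on both sides of 0, between -0.27 and 0.71.

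Among the regulators the transcript of NRF2 itself was higher with DASA-58, while those of its inhibitors and partners did not pass the threshold. Nfe2l2 was at 60.0, 58.1 and 62.9 FPKM in DMSO replicates 1, 2 and 3 and at 67.4, 67.1 and 69.4 FPKM in DASA-58 replicates 1, 2 and 3. All treated libraries were above all DMSO libraries, and the log2 fold change was 0.17 with a standard error of 0.036 (adjusted p = 0.022, limma). The call was lost under 7 of 17 alternatives. The adjusted p was 0.074 and 0.051 without DMSO replicates 1 and 2, and 0.061, 0.056 and 0.083 without DASA-58 replicates 1, 2 and 3 (limma), while without DMSO replicate 3 it was 0.016 (limma). With all libraries it was 0.065 without a filter on low values and 0.061 without a variance trend (limma). The log2 fold change stayed between 0.14 and 0.20. Keap1, the adaptor that delivers NRF2 to its ubiquitin ligase, was at 14.2 ± 0.773 FPKM with DMSO, against 13.5 ± 0.200 FPKM with DASA-58 (SD, n = 3 each), and the groups overlapped (adjusted p = 0.35, limma). Bach1, the competing repressor, was at 19.9 ± 1.17 and 20.3 ± 0.379 FPKM (SD, n = 3 each, adjusted p = 0.76, limma). Of the small MAF genes, which encode the DNA-binding partners of NRF2, Mafg was the most abundant in both groups. It was at 20.5, 20.7 and 20.7 FPKM with DMSO, against 21.6, 22.0 and 22.4 FPKM with DASA-58. These groups did not overlap, but the log2 fold change of 0.09 did not pass the threshold (adjusted p = 0.11, limma). Mafk was between 5.86 and 7.24 FPKM and Maff between 2.50 and 3.34 FPKM over all libraries, with overlapping groups.

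A list of other genes that take part in the degradation of NRF2 was also examined, among them the cullins, their RING partner and the substrate receptors. Of 12 genes in it 10 were listed and tested, and 0 passed an adjusted p under 0.05 in either direction (limma). At an unadjusted p under 0.05, 2 of them were lower and 0 higher. The share of all genes at that limit was not counted, so these 2 cannot be read as a shift of the list. With voom weights on recovered fragments 1 of the 8 that could be used was lower, beside 1141 of 9572 genes over all. Their log2 fold changes lay between -0.13 and 0.03, with a median of -0.04.

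Of the 6 genes of glutathione supply 3 were higher with DASA-58, namely Gclm, Gclc and Gsr, which act in synthesis and recycling. Gclm, the modifier subunit of glutamate-cysteine ligase, which carries out the rate-limiting step of glutathione synthesis, was at 39.7, 37.9 and 38.7 FPKM with DMSO, against 68.4, 64.9 and 65.6 FPKM with DASA-58. That is 171% of DMSO, from 4433 to 4585 fragments per library with DMSO and 7423 to 8106 with DASA-58, and its log2 fold change, 0.76 with a standard error of 0.033 (adjusted p = 3.1e-05, limma), was the largest of the members. Gclc, the catalytic subunit of the same enzyme, was at 14.6, 13.5 and 15.1 FPKM with DMSO, against 18.2, 19.6 and 18.2 FPKM with DASA-58. It rose to 130% of DMSO (log2 fold change 0.35, standard error 0.049, adjusted p = 0.0044, limma). Gsr, glutathione reductase, which returns oxidized glutathione to its reduced form, was at 86.3, 82.3 and 86.7 FPKM with DMSO, against 103, 105 and 104 FPKM with DASA-58, or 122% of DMSO (log2 fold change 0.29, standard error 0.030, adjusted p = 0.0012, limma). In these 3 genes the lowest DASA-58 library lay above the highest DMSO library.

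The other members of glutathione supply did not pass the threshold. Gss, the second enzyme of glutathione synthesis, was at 3.74 ± 0.158 and 3.71 ± 0.403 FPKM with DMSO, against DASA-58 (SD, n = 3 each). Slc7a11, the cystine importer of system xc- and a known NRF2 target, was low, at 1.41, 1.27 and 1.499 FPKM with DMSO, against 1.43, 1.44 and 1.49 FPKM with DASA-58. Its values overlapped, and from 334 to 394 fragments in each library came a log2 fold change of 0.04 with a standard error of 0.072 (adjusted p = 0.78, limma). Slc3a2, the heavy chain that Slc7a11 shares with other amino acid transporters, was at 77.4 ± 1.55 and 75.4 ± 3.97 FPKM (SD, n = 3 each, adjusted p = 0.59, limma).

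**Figure D2:**
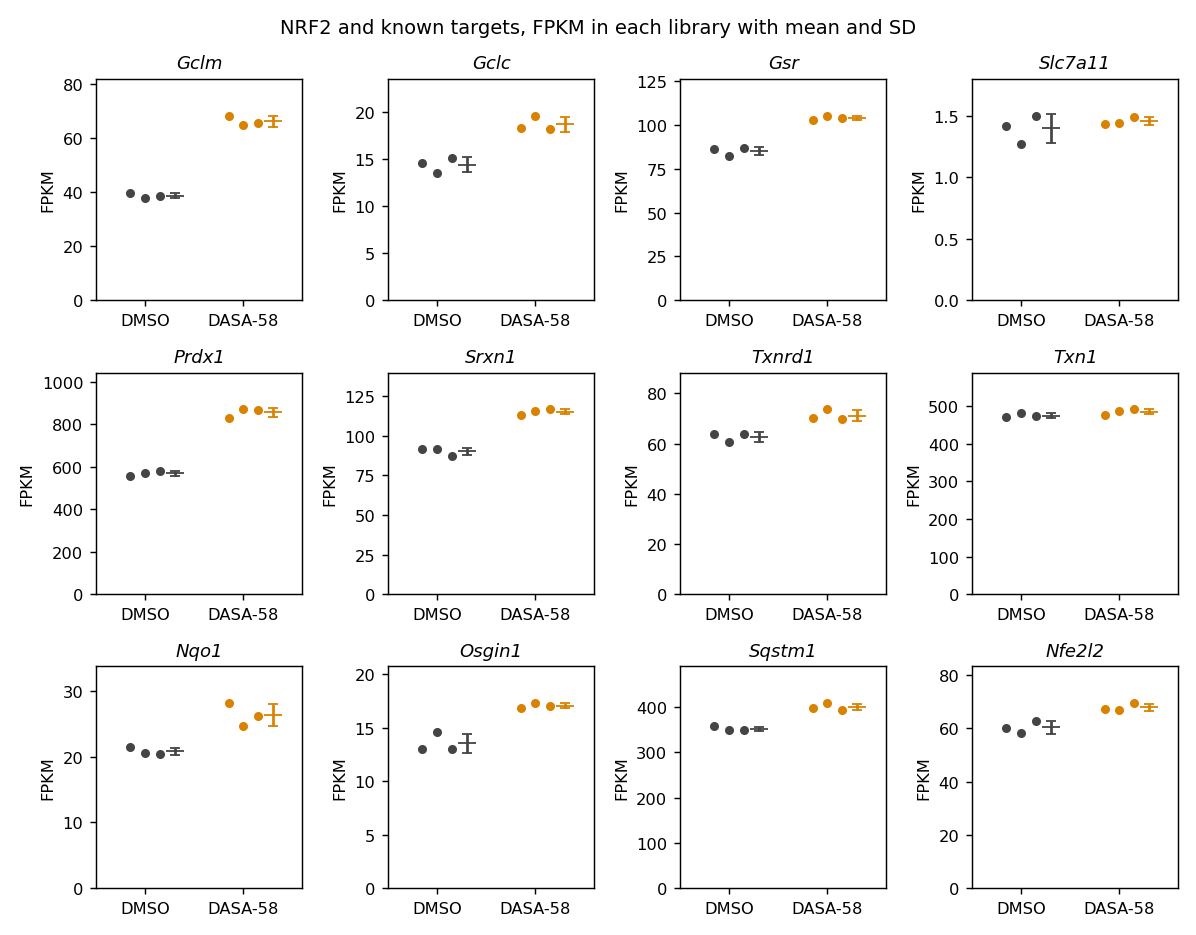
FPKM of Nfe2l2 and 11 known NRF2 targets in each library (points), with DMSO in dark grey and DASA-58 in orange and the mean with SD beside each group. All vertical axes start at 0. For Gclm the DMSO libraries lie between 37.9 and 39.7 FPKM and the DASA-58 libraries between 64.9 and 68.4 FPKM, while the groups of Slc7a11 and Txn1 overlap.

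In the thioredoxin system, which passes electrons from NADPH to oxidized proteins and peroxiredoxins, the reductase and sulfiredoxin were higher and the thioredoxins were not. Srxn1, sulfiredoxin, which repairs overoxidized peroxiredoxins, was at 91.5, 91.6 and 87.4 FPKM with DMSO, against 113, 116 and 117 FPKM with DASA-58. It rose to 128% of DMSO (log2 fold change 0.35, standard error 0.029, adjusted p = 4.8e-04, limma), without overlap. Txnrd1, the cytosolic thioredoxin reductase, was at 63.9, 60.6 and 63.8 FPKM with DMSO, against 70.1, 73.6 and 69.9 FPKM with DASA-58, or 113% of DMSO. All treated libraries were above the others (log2 fold change 0.18, standard error 0.035, adjusted p = 0.016, limma), and without DASA-58 replicate 2 the adjusted p was 0.056 (limma). Txn1, the cytosolic thioredoxin and a known NRF2 target, was among the most abundant members, at 471, 482 and 473 FPKM with DMSO, against 478, 487 and 491 FPKM with DASA-58. These groups overlapped, and with a standard error of 0.024 the log2 fold change was 0.03 (adjusted p = 0.46, limma). The mitochondrial counterparts had values below DMSO on average. Txn2 was at 29.6 ± 1.77 and 27.3 ± 0.212 FPKM (SD, n = 3 each, adjusted p = 0.14, limma), with all treated libraries below the others, and Txnrd2 at 5.75 ± 0.303 and 5.47 ± 0.320 FPKM (SD, n = 3 each, adjusted p = 0.54, limma).

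The 6 peroxiredoxins, thiol enzymes that reduce hydrogen peroxide, moved apart, with 3 higher, 1 lower and 2 not past the threshold. Prdx1, the cytosolic enzyme and a known NRF2 target, was at 556, 572 and 578 FPKM with DMSO, against 831, 869 and 867 FPKM with DASA-58. It rose to 151% of DMSO, from 31037 to 32804 fragments per library to between 47631 and 50059 (log2 fold change 0.59, standard error 0.028, adjusted p = 4.3e-05, limma), and was the most abundant of the members with DASA-58. Prdx2, its cytosolic relative, went the other way, at 59.9, 64.9 and 63.8 FPKM with DMSO, against 53.6, 54.7 and 55.9 FPKM with DASA-58. The groups did not overlap and Prdx2 fell to 87.0% of DMSO (log2 fold change -0.20, standard error 0.037, adjusted p = 0.014, limma), with an adjusted p of 0.055 without DASA-58 replicate 1 (limma). In the GENCODE annotation 173 of its 3050 exonic bases are shared with Junb on the opposite strand, and the use of strand in counting is not given in the sources used here.

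Prdx5 and Prdx6 rose to like extents. Prdx5, found in mitochondria, peroxisomes and cytosol, was at 81.8, 84.1 and 83.2 FPKM with DMSO, against 95.6, 103 and 105 FPKM with DASA-58, and 409 of its 2139 exonic bases are shared with Trmt112 on the opposite strand. Prdx6, the peroxiredoxin that uses glutathione, was at 37.1, 39.6 and 37.7 FPKM with DMSO, against 45.8, 46.3 and 47.4 FPKM with DASA-58. Both were at 122% of DMSO without overlap, with log2 fold changes of 0.28 (adjusted p = 0.0040 for Prdx5 and 0.0024 for Prdx6, limma). Prdx3, the mitochondrial enzyme, was at 56.3 ± 1.96 and 52.5 ± 1.46 FPKM (SD, n = 3 each), lower in all treated libraries but not past the threshold (adjusted p = 0.13, limma). Prdx4, the enzyme of the endoplasmic reticulum, was at 56.1 ± 0.912 and 56.6 ± 1.30 FPKM (SD, n = 3 each, adjusted p = 0.84, limma).

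Catalase and glutathione peroxidase 1, which both break down hydrogen peroxide, changed in opposite directions. Cat was at 211, 209 and 213 FPKM with DMSO, against 348, 344 and 347 FPKM with DASA-58. The groups lay far apart, at 164% of DMSO (log2 fold change 0.71, standard error 0.022, adjusted p = 8.3e-06, limma), and Cat had the smallest p of the 10965 genes tested. In the promoter window Cat held neither motif. Gpx1, a selenoprotein and the most abundant member with DMSO, was at 743, 787 and 738 FPKM with DMSO, against 632, 632 and 615 FPKM with DASA-58. It fell to 82.8% of DMSO without overlap (log2 fold change -0.27, standard error 0.031, adjusted p = 0.0017, limma). Both calls held under all 17 alternatives run.

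The remaining peroxidases and the superoxide dismutases did not pass the threshold. Gpx4, which reduces lipid peroxides in membranes, was at 149, 163 and 154 FPKM with DMSO, against 164, 165 and 171 FPKM with DASA-58. Its treated libraries were all above the others (log2 fold change 0.10, adjusted p = 0.13, limma). It passed under 2 of 17 alternatives. The adjusted p was 0.044 without DMSO replicate 2 and 0.040 with voom weights on recovered fragments (limma). Gpx4-ps2, a copy of Gpx4, was listed at 74.1 to 97.2 FPKM, so reads may be split between them and the values of Gpx4 are uncertain. Gpx3, the secreted enzyme, was at 7.01 ± 0.124 and 7.57 ± 0.489 FPKM (SD, n = 3 each, adjusted p = 0.27, limma). Gpx7 and Gpx8, of the endoplasmic reticulum, were near the limit of 1 FPKM, between 0.719 and 1.55 and between 0.863 and 1.51 FPKM over all libraries. Gpx7 rested on 17 to 38 fragments per library, and fragments of Gpx8 were not recovered. The groups of both genes overlapped (adjusted p = 0.65 for Gpx7 and 0.46 for Gpx8, limma).

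Sod1, the cytosolic superoxide dismutase, was at 473, 533 and 484 FPKM with DMSO, against 453, 469 and 462 FPKM with DASA-58. All treated libraries were below the others, but DMSO replicate 2 stood above the rest, and the log2 fold change of -0.10 did not pass the threshold (adjusted p = 0.18, limma). With quantile normalization between libraries it did, at an adjusted p of 0.019 (limma). Sod2, the mitochondrial enzyme, was at 39.4 ± 0.596 and 39.4 ± 0.473 FPKM (SD, n = 3 each, adjusted p = 0.97, limma).

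**Figure D3:**
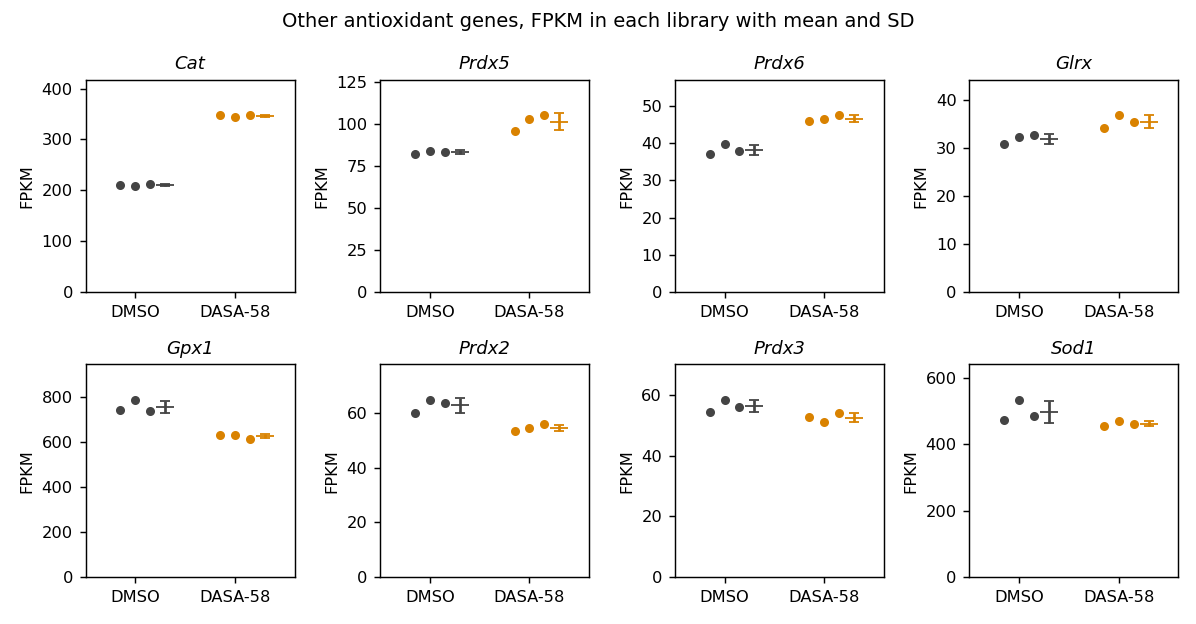
FPKM of 8 other antioxidant genes in each library (points), with DMSO in dark grey and DASA-58 in orange and the mean with SD beside each group. All vertical axes start at 0. Cat lies between 209 and 213 FPKM with DMSO, against between 344 and 348 FPKM with DASA-58, and Gpx1 between 738 and 787 and between 615 and 632 FPKM.

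Of the glutaredoxins, which reduce protein thiols bound to glutathione or carry iron-sulfur clusters, Glrx passed the threshold by a small margin. Glrx was at 30.8, 32.3 and 32.7 FPKM with DMSO, against 34.2, 36.9 and 35.4 FPKM with DASA-58 (log2 fold change 0.15, standard error 0.039, adjusted p = 0.048, limma). The groups did not overlap, but the call was lost whichever library was left out, DMSO or DASA-58 replicate 1, 2 or 3, with adjusted p between 0.056 and 0.14 (limma). Glrx3 was at 25.5 ± 0.687 and 24.7 ± 0.770 FPKM (SD, n = 3 each). Glrx5 was at 17.1, 17.7 and 13.1 FPKM with DMSO, against 17.5, 17.5 and 16.7 FPKM with DASA-58, so that DMSO replicate 3 stood below the other libraries, and without it the log2 fold change was -0.01 in place of 0.12.

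Of the 6 targets in detoxification, export and signalling, 4 were higher. Nqo1, a quinone reductase and a classical NRF2 target, was at 21.4, 20.6 and 20.4 FPKM with DMSO, against 28.1, 24.7 and 26.2 FPKM with DASA-58, or 126% of DMSO (log2 fold change 0.32, standard error 0.049, adjusted p = 0.0062, limma). Osgin1, an oxidative stress-induced growth inhibitor, was at 13.0, 14.6 and 13.0 FPKM with DMSO, against 16.8, 17.3 and 17.1 FPKM with DASA-58, or 126% of DMSO (log2 fold change 0.31, standard error 0.048, adjusted p = 0.0067, limma). Sqstm1, the autophagy receptor p62, which binds KEAP1, was at 357, 349 and 349 FPKM with DMSO, against 399, 409 and 395 FPKM with DASA-58, or 114% of DMSO (log2 fold change 0.19, standard error 0.025, adjusted p = 0.0036, limma). In each of these 3 genes the groups did not overlap. Abcc1, an exporter of glutathione conjugates, was at 35.4, 34.1 and 34.7 FPKM with DMSO, against 39.3, 37.8 and 38.01 FPKM with DASA-58. It passed at a log2 fold change of 0.14 with a standard error of 0.031 (adjusted p = 0.027, limma), and the adjusted p lay between 0.056 and 0.090 when DMSO or DASA-58 replicate 1, 2 or 3 was left out (limma). Cbr1, a carbonyl reductase, was at 36.1 ± 0.242 and 36.3 ± 1.598 FPKM and Ephx1, microsomal epoxide hydrolase, at 32.3 ± 0.313 and 32.2 ± 2.004 FPKM (SD, n = 3 each), and neither passed the threshold (adjusted p = 0.93 and 0.96, limma).

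The members spanned a wide range of levels per length. With DMSO the order from the top was Gpx1 at 756, Prdx1 at 569, Sod1 at 497, Txn1 at 475 and Sqstm1 at 352 FPKM, and with DASA-58 it was Prdx1 at 856, Gpx1 at 626, Txn1 at 485, Sod1 at 461 and Sqstm1 at 401 FPKM. Sod1 and Txn1 were not separated with DMSO, where the libraries of Sod1 ran from 473 to 533 and those of Txn1 from 471 to 482 FPKM. The lowest DMSO mean among the higher members was that of Osgin1, 13.5 FPKM. The summed FPKM of the 14 known targets was 1819 to 1830 with DMSO and 2236 to 2294 with DASA-58, while that of the 20 other antioxidant genes was 2101 to 2242 and 2137 to 2166. The sum of the targets is largely set by Prdx1, Txn1 and Sqstm1.

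**Figure D4:**
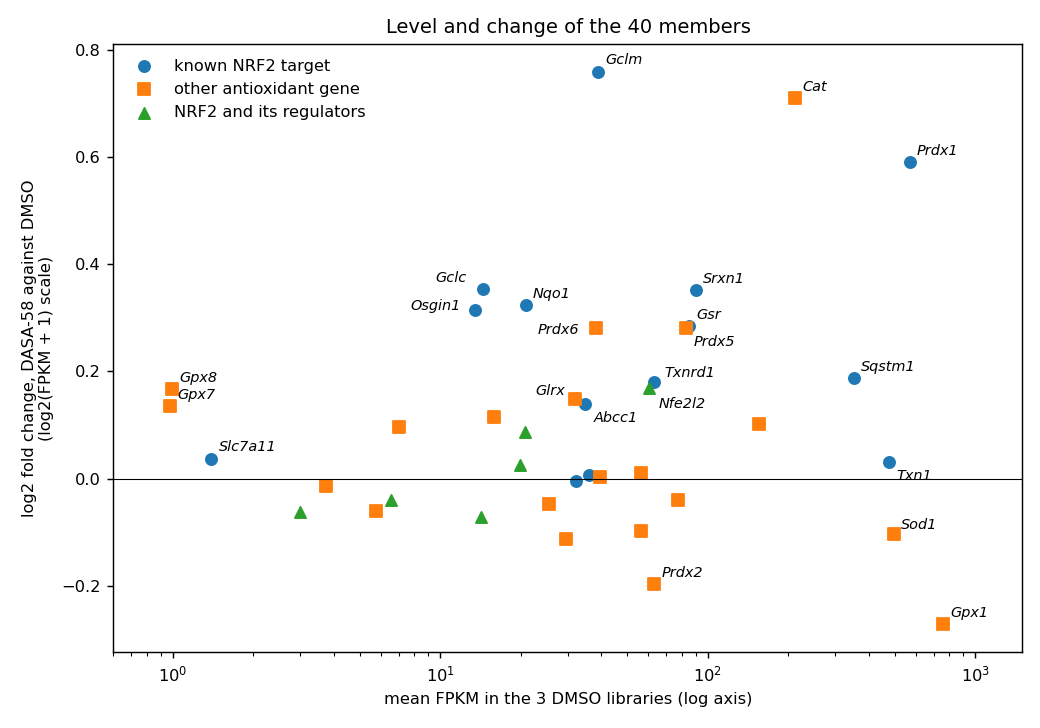
Mean FPKM in the 3 DMSO libraries (horizontal log axis) against the log2 fold change with DASA-58 on the log2(FPKM + 1) scale (vertical axis) for the 40 members, with circles for known NRF2 targets, squares for other antioxidant genes and triangles for the regulators. Gclm, Cat and Prdx1 stand above the rest at 0.76, 0.71 and 0.59, with DMSO levels of 38.8, 211 and 569 FPKM, and Gpx1 is the lowest point at -0.27.

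Ratios of related genes within a library do not depend on the scaling between libraries. The 4 such ratios examined, chosen after the values were seen, were higher in all DASA-58 libraries than in any DMSO library. Prdx1 was 9.27, 8.81 and 9.06 times as high as Prdx2 per length with DMSO and 15.5, 15.9 and 15.5 times with DASA-58. The ratio of Gclm to Gclc, the modifier to the catalytic subunit, was 2.72, 2.80 and 2.57 with DMSO and 3.75, 3.31 and 3.60 with DASA-58. Cat was at 0.284, 0.266 and 0.289 of Gpx1 with DMSO and at 0.551, 0.544 and 0.565 of it with DASA-58. The ratio of Txnrd1 to Txnrd2, the cytosolic to the mitochondrial reductase, was 10.9, 11.2 and 10.7 with DMSO and 12.4, 14.5 and 12.4 with DASA-58. No test is given for pairs chosen in this way.

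**Figure D5:**
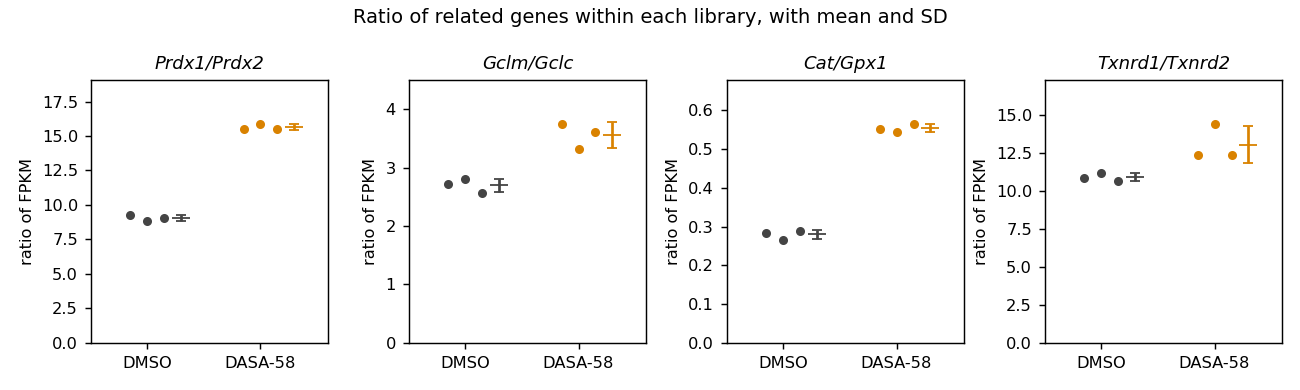
Ratio of the FPKM of 2 related genes within each library (points), with DMSO in dark grey and DASA-58 in orange and the mean with SD beside each group. All vertical axes start at 0. The ratio of Prdx1 to Prdx2 lies between 8.81 and 9.27 with DMSO and between 15.5 and 15.9 with DASA-58, and that of Cat to Gpx1 between 0.266 and 0.289 and between 0.544 and 0.565.

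Beyond the members, a list of 40 other NRF2 targets was examined, which covers glutathione transferases, iron and heme handling, NADPH production and export. Of these 36 were listed and 27 tested, and 16 were higher and 1 lower with DASA-58 (limma, adjusted p under 0.05), with a median log2 fold change of 0.19. That is 59.3% higher and 3.7% lower, against 4.24% and 7.28% of all genes tested. The list was chosen with earlier results known and was not tested as a set. The 6 with the smallest p were all higher. They were Gsta3, Mgst1 and Gstm1, which encode glutathione transferases, at 194%, 142% and 139% of DMSO, Fth1, the heavy chain of ferritin, at 133%, Slc48a1, a heme transporter, at 119%, and Pgd, an NADPH-producing enzyme of the pentose phosphate pathway, at 119% of DMSO. The call of Fth1 was lost without a filter on low values (adjusted p = 0.19, limma). It was also absent with quantile normalization, where its log2 fold change was -0.00. That scaling sets genes of equal rank to the same value in every library, so a gene that keeps its rank shows no change. Fth1 ranged from 8863 to 12230 FPKM, near the top of the listed genes, and this setting cannot decide whether it changed. Hmox1, heme oxygenase 1, and Gstp1 are named after their values were seen. Hmox1 was at 294, 296 and 287 FPKM with DMSO, against 316, 325 and 329 FPKM with DASA-58 (adjusted p = 0.012, limma). Its call was lost under 4 of 17 alternatives. The adjusted p was 0.051 and 0.057 without DASA-58 replicates 2 and 3, 0.0504 without a filter on low values and 0.059 without a variance trend (limma). The lower gene was Gstp1, a glutathione transferase with close relatives in the genome, at 32.7, 33.8 and 29.2 FPKM with DMSO, against 24.7, 22.5 and 27.8 FPKM with DASA-58 (log2 fold change -0.34, adjusted p = 0.033, limma). This call was lost under 10 of the 16 alternatives that could be run for it, among them the omission of DMSO replicate 1 or 2 or DASA-58 replicate 1 or 2, with adjusted p between 0.014 and 0.12 over all 16 (limma), and it could not be fitted with voom weights because its fragments were not recovered.

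The cells carried macrophage markers at high levels, and other markers moved with the treatment. Beside the counts that follow, 4.24% of all genes tested were higher and 7.28% lower. Of 12 osteoclast markers 11 were tested, and 10 were lower and 0 higher with DASA-58, with summed FPKM of 1015 to 1079 with DMSO and 668 to 689 with DASA-58. Ctsk, the collagen-degrading cathepsin of osteoclasts, was at 52.2% of DMSO. Of 10 macrophage markers 4 were higher and 2 lower, with sums of 16490 to 17320 and 17430 to 19750 FPKM. These sums are largely set by Lyz2, named after its values were seen. Lyz2 was at 15250, 15510 and 14700 FPKM with DMSO, against 17260, 15450 and 17770 FPKM with DASA-58. Its groups overlapped and it did not pass the threshold (adjusted p = 0.11, limma). Of 8 neutrophil markers 7 were tested and 4 were lower, with sums of 174 to 177 and 136 to 143 FPKM. Their defining marker Ly6g, also named after its values were seen, was at 0 in 1 DMSO library and in all DASA-58 libraries and under 0.06 FPKM in the rest. Of 6 stromal markers 3 were tested and 0 passed (limma), with sums of 34.5 to 36.7 and 35.0 to 36.0 FPKM. At an unadjusted p under 0.05, 1 stromal marker was lower, a limit for which the share of all genes was not counted. With voom weights 1 stromal marker was lower, beside 1141 of 9572 genes over all. The summed levels of T and NK cell, B cell, dendritic cell, mast cell and basophil, and erythroid markers stayed under 2.4 FPKM in all libraries, over the 8 of 8, 3 of 5, 5 of 6, 4 of 5 and 1 of 5 named markers that were listed, so that the erythroid sum is that of 1 gene. The part of the osteoclast, macrophage and neutrophil shifts in the changes of the antioxidant genes was not tested.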

How the data were processed

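RNA-seq of 6 libraries of BMMs was analysed, 3 with DMSO and 3 with DASA-58, grouped by the treatment in the sample labels. The authors deposited FPKM values in 1 table of 23504 genes. The submitters' processing notes name HISAT2 2.1.0, HTSeq 0.6.0 and the build mm8, without role or order. The annotation, the use of strand and the treatment of reads that map to several genes are not given in the sources used here. The values were used as deposited. Symbols (23455 of 23504 identifiers) and gene lengths came from GENCODE mouse release M21, which is on GRCm38 and not on mm8. Its lengths gave whole fragments (within 0.02) in all libraries for 90.9% of the genes and for 34 of the 40 members. The build in the notes therefore differs from that of the lengths that matched the values. The recovered depth was 18191560 to 18968556 fragments per library, where a count of 0 allows 3 fragments, or 0.158 to 0.165 FPKM on a gene of 1000 bases. These limits cover counting error only. Fragments were not printed for the other 6 members.

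Groups were compared with limma 3.58.1 (R 4.3.3, lmFit and eBayes with trend) on log2(FPKM + 1) where the mean reached 1 FPKM (10965 genes), with Benjamini-Hochberg adjustment. The study names Student's test among its general statistics, and for RNA-seq defines lower genes by limits on the fold change and p without naming the test. The choice of limma was made here. Other steps used pandas 2.3.3 and numpy 2.4.6 under Python 3.11.15, with matplotlib 3.10.9 for figures, and the fit was tested on simulated data. The members and gene lists were chosen with earlier results of these data known, so no list was tested as a set. A further gene list is not reported here. All members were named by rule, and of the other lists at most the 6 genes with the smallest p among those past the threshold, with Ctsk among the markers. Hmox1, Gstp1, Ly6g and Lyz2 were named outside this rule, after their values were seen. The alternatives were other pseudocounts, filters, scalings and variance settings, a block for the replicate number, and the omission of single libraries, as well as voom weights on recovered fragments, chosen after seeing the data.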

Additional observations from a re-analysis of the deposited data

How the results depend on the processing

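Of the 17 members past the threshold, 12 passed it under all 17 alternatives run, namely Gclm, Gclc, Gsr, Nqo1, Srxn1, Prdx1, Prdx5, Prdx6, Gpx1, Cat, Osgin1 and Sqstm1. Nfe2l2, Txnrd1, Prdx2, Abcc1 and Glrx lost the call under at least 1 alternative, mainly with 1 library fewer, and kept their direction. The higher members numbered 11 to 15 and the lower 1 to 3 (1 without a filter on low values, 3 with quantile normalization, 1 to 2 with 1 library left out). Among all genes tested, 465 were higher and 798 lower. The counts were 257 and 372 without a filter, 273 to 373 and 385 to 604 with 1 library left out, and the lower genes numbered 504 after median centring, 523 with the trimmed mean of log ratios and 515 without a variance trend. The median of the known targets (0.24) was 0.22 with a pseudocount of 5, 0.29 (0.285) at a mean of at least 5 FPKM, 0.25 with quantile normalization, 0.26 after median centring, 0.22 with equal library totals, 0.26 with the trimmed mean and 0.31 with voom weights, and 0.22 to 0.24 with 1 library left out. That of the other antioxidant genes (0.01) was 0.0348 with quantile normalization and 0.0336 with centring, and -0.0117 to 0.0327 with 1 library left out. The median of all genes stayed between -0.04 and 0.00.

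Members without a call changed sign near 0. With quantile normalization, centring and the trimmed mean, in that order, the values were 0.0218, 0.0137 and 0.0118 for Gss and 0.0242, 0.0222 and 0.0203 for Ephx1. With equal library totals they were -0.0060 for Prdx4, -0.015 for Sod2 and -0.0103 for Cbr1. With 1 library left out the ranges were -0.0218 to 0.0505 for Bach1, -0.0901 to 0.0261 for Mafk, -0.1514 to 0.0037 for Maff, -0.072 to 0.052 for Gss, -0.0057 to 0.0266 for Prdx4, -0.010 to 0.0101 for Sod2, -0.0282 to 0.0279 for Cbr1, -0.0535 to 0.0264 for Ephx1 and -0.0134 to 0.1907 for Glrx5.

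The labels number the replicates alike in both groups, but same-numbered libraries did not deviate together (r of -0.016, 0.016 and -0.016 across genes), so the numbers were not taken as pairs. With the replicate number as a block, 378 genes were higher and 579 lower, and 15 members were higher and 2 lower. The cause of these differences was not tested. Gpx7 was the member with the fewest recovered fragments, under 100 in each library.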
